A study of Homo sapiens with 3 samples.

Results

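EP300 peaks that lie in the first intron of an annotated transcript made up 5286 of 65276 peaks in replicate 1 and 5213 of 64896 in replicate 2, or 8.07% ± 0.046 (SD, n = 2) of a list. They were taken by position alone, as rows that the authors' ChIPseeker annotation places in an intron and describes as intron 1, on chromosomes 1 to 22 and X, with rows of the same interval joined. EP300 is a histone acetyltransferase and transcriptional coactivator, mapped here by chromatin immunoprecipitation and sequencing (ChIP-seq). Both samples pulled down with the EP300 antibody are used, and the 1 input, made with no antibody, enters no value of its own. All were wild-type H9 cells, an established human embryonic stem cell line, kept in the naive state in PXGL on a layer of mouse embryonic fibroblasts (MEF), which share the dish. PXGL combines the MEK inhibitor PD0325901, the tankyrase inhibitor XAV939, the protein kinase C inhibitor Gö 6983 and LIF at 10 ng/mL. There was 1 condition and 1 cell line, and the labels do not tell whether the 2 EP300 samples are separate cultures or repeats of 1, so an SD over them may be technical error alone. The title concerns O-GlcNAcase (OGA), but all samples analysed here are wild type.

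EP300 has no DNA-binding domain that reads a sequence of its own. It is brought to promoters and enhancers by transcription factors and acetylates histones there, and its peaks away from promoters are widely used to find candidate enhancers. The first intron of a gene is often its longest and is a common place for enhancers and for alternative start sites. Such peaks were not tested for enhancer activity here.

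The position rule leaves out the part of a first intron next to its start. No first intron peak lay closer than 3001 bp to an annotated start in replicate 1 or 3004 bp in replicate 2, because peaks within 3 kb of a start were filed as promoter peaks. Fold enrichment was similar on both sides of that line. First intron peaks 3 to 3.5 kb from a start had a median fold enrichment of 3.84 (n = 260) and 3.94 (n = 238) in replicates 1 and 2, and promoter peaks 2.5 to 3 kb away had 3.97 (n = 1414) and 3.90 (n = 1362). Fold enrichment is the authors' value at the peak summit, as their caller gave it.

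Of the reproducible first intron regions described below, 18 of 3126 (0.576%) covered a RefSeq start site, although the authors' annotation has no start within 3 kb of these peaks. For later introns this was 43 of 5385 (0.799%). These regions hold 19 RefSeq start sites of 18 genes, 3 of them protein-coding: ZNF385C, HIP1 and CORO2B. The 250 bases before the 3 coding starts, and before the non-coding start that lay closest to the summits of both samples, are printed to show what these regions look like at a start. They come from RefSeq GRCh38.p14 and run 5′ to 3′ on the gene's strand, with CpG dinucleotides in capitals. ZNF385C encodes a zinc finger protein (chr17:42072600-42072849, minus strand), HIP1 a clathrin adaptor that binds huntingtin (chr7:75639243-75639492, minus strand), and CORO2B an actin-binding coronin (chr15:68641253-68641502, plus strand). LOC101927234 is a non-coding gene that starts inside TMC1, a channel gene of hair cells (chr9:72527666-72527915, minus strand).
ZNF385C: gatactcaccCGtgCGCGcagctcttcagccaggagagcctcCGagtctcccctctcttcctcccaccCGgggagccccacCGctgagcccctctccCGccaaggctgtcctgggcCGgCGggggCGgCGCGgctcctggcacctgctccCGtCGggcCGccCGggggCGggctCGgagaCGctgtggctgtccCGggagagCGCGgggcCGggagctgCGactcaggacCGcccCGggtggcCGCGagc
HIP1: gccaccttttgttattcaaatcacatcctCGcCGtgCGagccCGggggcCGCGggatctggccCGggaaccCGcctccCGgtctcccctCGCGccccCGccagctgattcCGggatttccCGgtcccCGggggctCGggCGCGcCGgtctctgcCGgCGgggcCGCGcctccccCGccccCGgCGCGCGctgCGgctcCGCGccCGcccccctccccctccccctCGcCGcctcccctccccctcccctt
LOC101927234: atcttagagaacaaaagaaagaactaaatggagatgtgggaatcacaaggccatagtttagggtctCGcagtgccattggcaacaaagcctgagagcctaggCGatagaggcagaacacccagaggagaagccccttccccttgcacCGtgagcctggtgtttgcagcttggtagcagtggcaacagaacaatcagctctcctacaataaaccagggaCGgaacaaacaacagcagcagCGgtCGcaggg
CORO2B: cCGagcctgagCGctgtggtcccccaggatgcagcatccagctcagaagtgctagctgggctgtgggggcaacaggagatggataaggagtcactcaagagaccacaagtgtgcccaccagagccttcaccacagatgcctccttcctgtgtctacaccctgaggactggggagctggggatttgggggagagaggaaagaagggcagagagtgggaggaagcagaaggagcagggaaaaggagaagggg

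The first and second of these are CpG-rich, with 28 and 34 CpG dinucleotides, and the others hold 6 and 2. Fold enrichment in replicates 1 and 2 was 14.9 and 17.2 at ZNF385C, whose summits lay 11 and 5 bp from the RefSeq start. It was 14.8 and 14.5 at HIP1, with summits 360 and 68 bp away. The region at LOC101927234 reached 10.1 and 10.2, with summits 14 and 27 bp from the start, and that at CORO2B 4.64 and 5.10, with summits 295 and 200 bp away. Of the coding starts, only that of ZNF385C lay within 30 bp of both summits. LOC101927234 was chosen for its closeness, so its distances are no separate result. Other starts among the 19 lay farther off, up to 2614 and 1399 bp at LOC107985687. Over all 19 starts the median GC content of these 250 bases was 61.2%, and the median ratio of observed to expected CpG was 0.649, against 58.4% and 0.558 over 34961 RefSeq starts. A TFAP2 motif (GCCNNNGGC, both strands) was present in 4 of 19 windows (21.1%) and in 19.8% of all. A TEAD motif (GGAATG) was present in 2 of 19 (10.5%, and 11.9% of all), and an AP-1 motif (TGANTCA) in 1 (5.26%, and 6.54% of all). Matches of different motifs were counted separately, overlaps included. With 19 windows these shares are descriptions only.

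One reproducible region overlapped a microRNA hairpin, MIR12128, at its edge, on the plus strand of chromosome 16, inside the first intron of GSE1. Its mature sequence (chr16:85207860-85207885, RefSeq GRCh38.p14) is given because it is the 1 microRNA under a reproducible first intron region, with the seed, bases 2 to 8, in capitals.
hsa-miR-12128: uUCAGGGAuggcgcaugaagaggaga
The region over it had fold enrichment 4.60 and 6.50 in replicates 1 and 2.

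First intron peaks were weak within their lists, and no stronger than peaks in later introns. Their median fold enrichment was 3.95 in replicate 1 and 3.94 in replicate 2, with quartiles at 3.27 and 5.11 in replicate 1 and at 3.30 and 5.11 in replicate 2. Promoter peaks exceeded first intron peaks by 1.71 and 1.77 in the median, and distal intergenic peaks by 0.136 and 0.195. The difference between first and later introns was -0.0134 in replicate 1 and 0.0307 in replicate 2, so its sign was not the same in both. Above percentile 90 of their list by fold enrichment were 165 first intron peaks of replicate 1 (3.12%, Wilson 95% interval 2.69 to 3.63; all peaks 9.99%) and 148 of replicate 2 (2.84%, 2.42 to 3.33; all peaks 10.00%). For later introns the mean over the samples was 3.09% ± 0.0166, and for promoters 16.6% ± 0.0211 (SD, n = 2). With 2 samples of 1 group an exact sign-flip test of such differences cannot go below p = 0.5, so none was made, and the spread of the 2 samples stands in its place. All intervals cover counting error only.

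**Figure D1:**
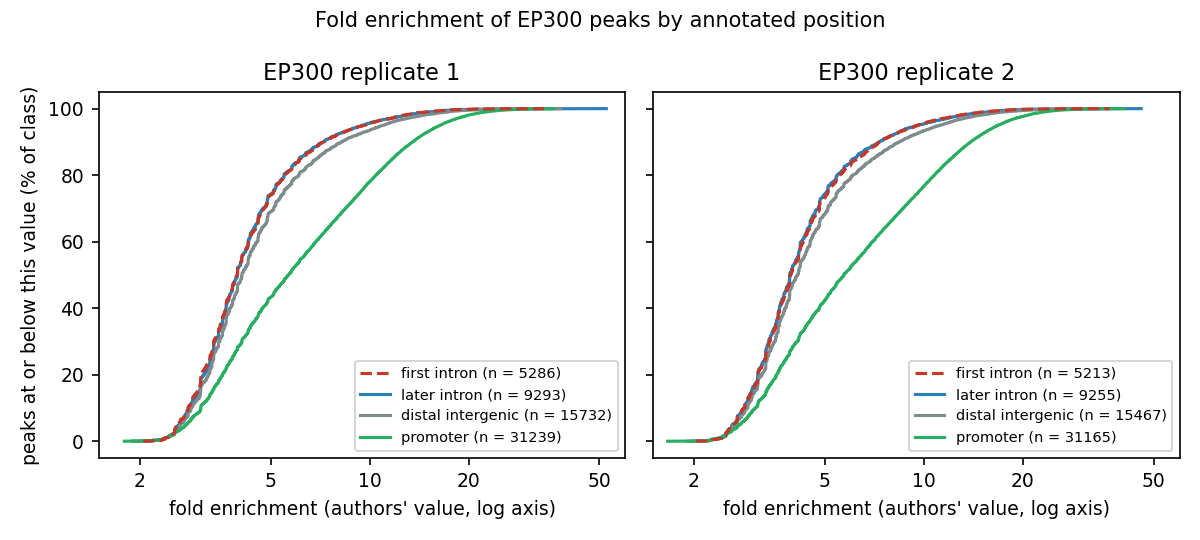
Cumulative share of peaks (percent of each class, vertical) by the authors' fold enrichment (horizontal, log axis) in EP300 replicates 1 and 2, for first intron, later intron, distal intergenic and promoter peaks. The dashed first intron curve runs on the later intron curve, with medians of 3.95 and 3.94, and the promoter curve lies to the right.

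The peaks were also short. Their median width was 638 bp ± 19.8 (SD, n = 2), against 624 ± 17.7 for later introns and 952 ± 31.8 for promoters. More than 1 summit was called in 11.6% of first intron peaks of replicate 1 and 12.0% of replicate 2, and the peak with most held 7 and 8. Together they covered 4.13 Mb and 4.31 Mb. The strongest reached a fold enrichment of 33.9 and 36.7.

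About 6 in 10 first intron peaks were found in both samples. In replicate 1, 3356 peaks (63.5%, Wilson 95% interval 62.2 to 64.8) overlapped a replicate 2 peak by at least 1 bp, and in replicate 2, 3299 (63.3%, 62.0 to 64.6) overlapped a replicate 1 peak. Over all peaks the shares were 74.5% and 73.9%. The share in first introns minus that in later introns was 1.40 percentage points in replicate 1 (95% interval -0.236 to 3.02) and 1.93 in replicate 2 (0.287 to 3.57), so the interval of replicate 1 included 0. First intron minus promoter gave -20.7 points in replicate 1 (-22.1 to -19.4) and an interval of -21.4 to -18.7 in replicate 2. The names of both deposited tables mention an input, and the series has 1 input sample; no other source says which library the peaks were called against, and the part of a shared input in the sharing was not tested.

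Sharing followed fold enrichment within first introns. Under percentile 20 by fold enrichment 42.3% of replicate 1 and 40.3% of replicate 2 first intron peaks were shared, and 26.4% and 25.9% of the class lay there. Above percentile 80, 403 of 403 and 386 of 386 were shared, and 7.62% and 7.40% of the class lay there. Below percentile 80, promoter peaks of the same band were shared more often, for instance 63.8% against 50.4% between percentiles 20 and 40 in replicate 1, and 61.5% against 52.6% in replicate 2. First and later intron peaks differed most in that band of replicate 2, at 52.6% (49.9 to 55.2) and 47.9% (46.0 to 49.9).

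**Figure D2:**
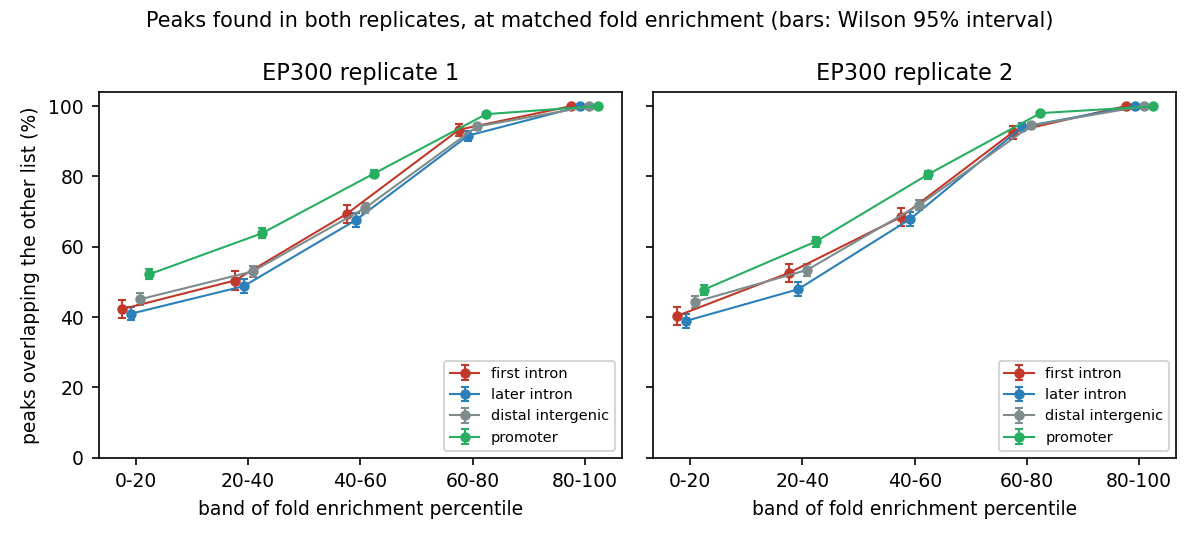
Share of peaks that overlap a peak of the other replicate (percent, vertical) by band of fold enrichment percentile within the list (horizontal), per class and replicate; bars are Wilson 95% intervals. First intron peaks rise from 42.3% and 40.3% in the lowest band to 100% in the highest, close to later intron peaks and below promoter peaks in the lower bands.

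Unshared first intron peaks were weak. The 1930 of replicate 1 and 1914 of replicate 2 had a median fold enrichment of 3.43 and 3.42, against 4.51 for shared peaks in both lists, and 8 in each list lay above percentile 70. A peak of the other list lay within 1 kb of 20.1% and 20.8% of them. The highest in replicate 1 with a named host lay in PDP1, a phosphatase gene of the pyruvate dehydrogenase complex (fold enrichment 7.91), in HIVEP3, a zinc finger gene (6.71), and in ALDH1A2, which encodes a retinaldehyde dehydrogenase (6.41). In replicate 2 they lay in C9orf85 (8.07), in TIPIN, a replication fork gene (7.17), and in CLYBL (6.97). At PDP1, HIVEP3 and CLYBL a summit of the other list lay 1.51, 1.77 and 1.83 kb away, and at ALDH1A2 none lay within 50 kb.

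Groups of overlapping peaks with at least 1 first intron peak from each sample formed 3126 reproducible regions, 6.76% of 46263 regions of all kinds. In 2894 of them the group was 1 peak from each sample. In larger groups the first intron peaks of the 2 samples need not overlap each other. The length of a region runs over all peaks of its group, of any class. A region had a median length of 958 bp, and its summits lay a median of 81 bp apart in the 2 samples. In all 3126 the strongest first intron peaks of both samples had the same host gene, meaning the gene of the transcript that the annotation names. Pairs of overlapping peaks mostly carried the same class, with 3388 pairs in a first intron in both lists, 54 and 46 that were promoter peaks in the other list, and 18 and 34 of other kinds. The percentile of a region within its list differed by a median of 11.3 points between the samples, and Spearman's rho of the percentiles was 0.714 over the 3126 regions. This value is across regions that share both libraries and is given without a test. A region's percentile below is the lower of its 2 values. It was above 90 for 112 regions (3.58%) and under 50 for 1915 (61.3%).

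**Figure D3:**
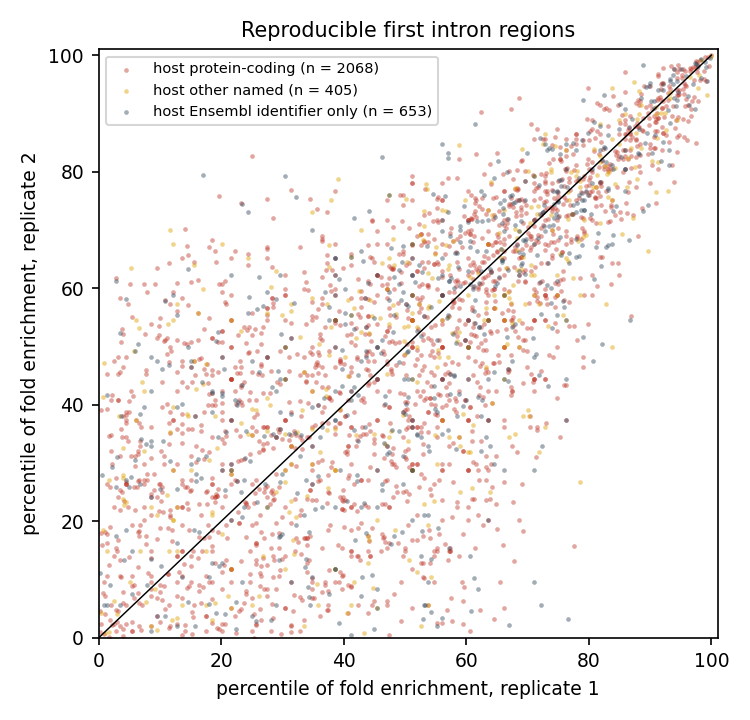
Percentile of fold enrichment in replicate 1 (horizontal) and replicate 2 (vertical) for each of the 3126 reproducible first intron regions, coloured by the kind of host gene. Hosts with no name in the tables are shown with those of an Ensembl identifier only. Points narrow to the diagonal at the upper right, where 112 regions lie above percentile 90 in both, and spread below the middle.

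The highest first intron region lay in SORBS2, which encodes a cytoskeletal adaptor protein. It spanned 185837799 to 185841795 on chromosome 4 (GRCh38), 24.7 kb from the nearest start, with fold enrichment 33.9 in replicate 1 and 36.7 in replicate 2, and 3 summits in each. Next among named hosts was LINC01169, a long non-coding RNA gene, at 66618876 to 66622876 on chromosome 15, with 29.8 and 27.8. A further region of LINC01169 ranked 8 of all, with 18.6 and 21.5, and its nearest start, 46.3 kb away, was that of SMAD6, an inhibitor of BMP signalling. At MEF2B, a MADS-box transcription factor gene (chromosome 19, 19159720 to 19162095), the values were 23.3 and 24.9. At RAB7A, a GTPase gene of late endosomes (chromosome 3, 128697820 to 128699327), they were 20.4 and 26.2, at 4.15 kb from a start. In these 5 regions the 2 samples gave percentiles of at least 98.3.

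Of the other named hosts among the 10 highest, NFIA, a gene of a nuclear factor I transcription factor, had 24.3 and 18.7 and was the 1 of these 5 with the lower value in replicate 2. TRPM1, a cation channel gene of the retina, had 18.1 and 21.8 with 4 and 5 summits. ENPEP, an aminopeptidase gene that marks trophectoderm, had 17.3 and 19.2. SVOP, a synaptic vesicle gene, had 17.1 and 20.7, and RAI1, a chromatin-associated gene, had 17.1 and 18.0. To reach 10 regions with a named host, 5 regions whose host had no symbol in the tables were passed over, and 3 of the 10 highest regions of all were of that kind. These counts do not separate genes known only by an Ensembl identifier from hosts whose name the tables lack. Only 6 regions had a fold enrichment of at least 20 in both samples, and 180 had at least 10.

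**Figure D4:**
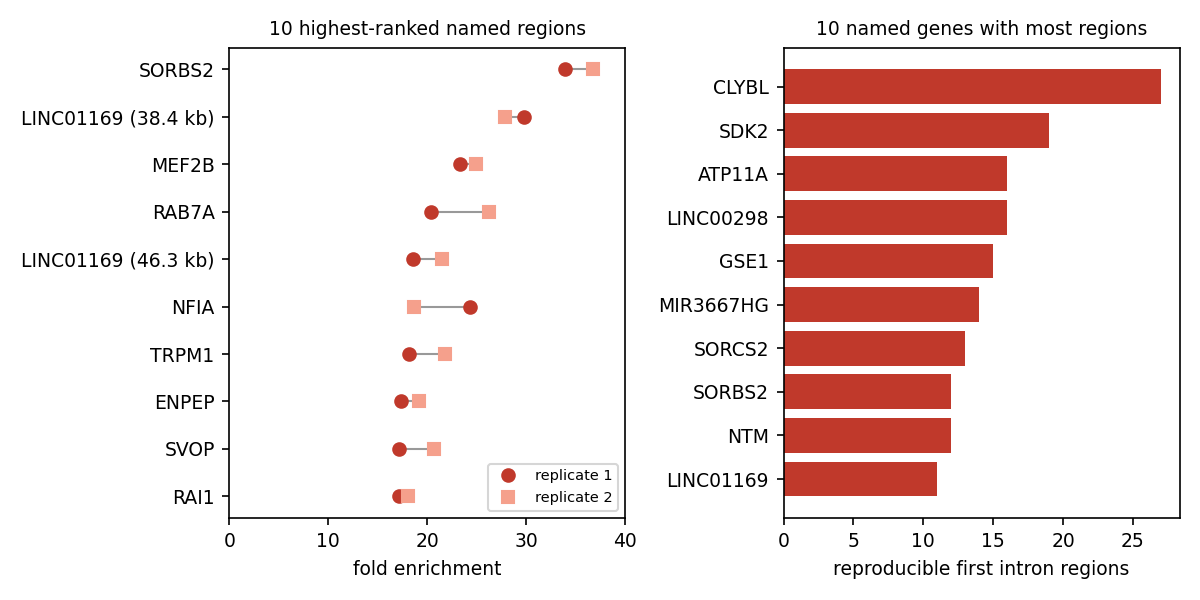
Left, fold enrichment (horizontal) in replicates 1 and 2 of the 10 highest-ranked regions with a named host gene, where SORBS2 reaches 33.9 and 36.7; the 2 LINC01169 regions are told apart by their distance from the nearest start. Right, number of reproducible first intron regions (horizontal) in the 10 named genes with most, from 27 in CLYBL to 11 in LINC01169.

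Host genes were mostly protein-coding. Coding genes held 66.6% of first intron peaks in replicate 1 and 66.5% in replicate 2, hosts known by an Ensembl identifier only held 16.2% and 15.8%, and other named genes held 12.6% and 12.9%. The last part had hosts with no name in the tables. Peaks in coding hosts had a median fold enrichment of 3.88 and 3.91, and those in hosts with only an identifier 4.05 and 4.07. Their sharing was 63.2% (61.6 to 64.8) and 62.2% (58.9 to 65.4) in replicate 1, and 62.7% (61.1 to 64.3) and 65.5% (62.1 to 68.6) in replicate 2, so the order turned between the samples.

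The label "first intron" refers to 1 transcript, not to the gene as a whole. The named transcript had a single intron for 16.3% of peaks in replicate 1 and 16.6% in replicate 2, and at least 10 introns for 31.3% and 31.0%. Of 3523 and 3468 peaks in coding hosts of known strand, 3195 and 3143 had their summit inside the gene's RefSeq extent, and the others were left out. Among those kept, the summit lay at a median of 24.1% and 24.6% of that extent from its 5′ end, 33.8 and 33.7 kb into the gene. For later introns it lay at 59.0% and 58.7%. In any transcript intron 1 comes before the later introns, so this order largely follows from the rule that chose the peaks. Yet 16.3% and 17.3% of these first intron peaks lay past the midpoint of the gene. Where the named transcripts start within the gene was not examined. RefSeq extents include the longest transcript models.

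**Figure D5:**
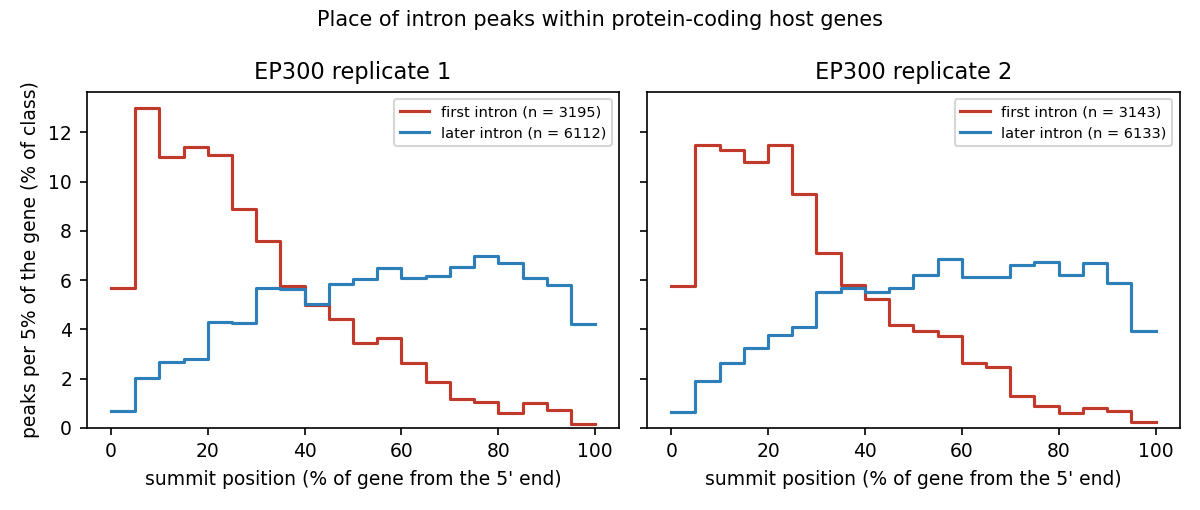
Share of peaks (percent of class, vertical) per 5% of the host gene's RefSeq extent from the 5′ end (horizontal), for first and later intron peaks in coding hosts, per replicate. Only peaks with a summit inside that extent are included. First intron peaks gather near the 5′ end, with medians of 24.1% and 24.6%, and later intron peaks lie mostly beyond the middle. This order largely follows from how the classes are defined.

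First intron peaks lay closer to a start site than later intron or distal intergenic peaks. The median distance to the nearest annotated start was 10.9 kb ± 0.0329 (SD, n = 2), against 15.5 kb ± 0.102 for later introns and 18.3 kb ± 0.0898 for intergenic peaks. A first intron is the one nearest to the start of its own transcript, and the part of this in the distances was not tested. Median strength and sharing varied little with distance. Median fold enrichment was 3.88 in replicate 1 and 3.87 in replicate 2 at 3 to 5 kb, and 3.86 and 4.01 beyond 50 kb. Sharing was 64.9% (61.8 to 67.9) and 63.5% (60.3 to 66.5) at 3 to 5 kb, and 62.1% (56.7 to 67.3) and 61.6% (56.2 to 66.8) beyond 50 kb, and the intervals of these bands overlapped. The farthest regions lay in DPP10, a potassium channel partner gene, 171 kb from a start with fold enrichment 2.97 and 4.57, in RORA, a nuclear receptor gene, 163 kb away with 6.71 and 5.11, and in KCND2, a potassium channel gene, 151 kb away with 3.66 and 4.81.

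The gene whose intron held the peak was often not the gene to which the authors assigned it, which is the one with the nearest start. The 2 were the same for 62.4% of peaks in replicate 1 (61.1 to 63.7) and 62.2% in replicate 2 (60.8 to 63.5), and for 52.9% and 53.1% in later introns. Of the first intron peaks assigned elsewhere, 46.0% and 44.9% went to genes with only an Ensembl identifier, and 13.1% and 12.9% to named coding genes. Relative to the nearest start, 39.2% and 38.4% of first intron peaks lay upstream. High-ranked cases were LINC01169 with SMAD6, ENPEP with the pseudogene ZNF969P 4.06 kb away, and CFAP20DC-AS1, a non-coding gene whose region (fold enrichment 15.8 in both samples) lay 6.34 kb from the start of CFAP20DC.

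The 3126 regions fell in 1657 genes, 1023 of them known to be protein-coding. Hosts with no name in the tables could not be counted as coding. A single region was present in 1041 genes (62.8%), while 318 genes with 3 or more held 1489 regions (47.6%). Neighbouring regions of the same gene lay a median of 3.80 kb apart.

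CLYBL, which encodes a mitochondrial citramalyl-CoA lyase, held the most, 27 regions over 153 kb of chromosome 13. Fold enrichment in CLYBL ranged from 2.49 to 13.9 in replicate 1 and from 2.21 to 19.0 in replicate 2, with a median of 4.58 in both, so weak and strong regions lay in the same gene. The lower of the 2 percentiles ran from 0.179 to 94.6 over its regions. The highest spanned 99657652 to 99658888. Of its 27 regions, 26 were nearest to the start of another gene, among them the antisense genes CLYBL-AS1 and CLYBL-AS2.

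SDK2, a cell adhesion gene, followed with 19 regions, from 2.56 to 11.9 in replicate 1 and from 2.92 to 11.3 in replicate 2. ATP11A, a phospholipid flippase gene, and LINC00298 held 16 each, GSE1 15, MIR3667HG 14, SORCS2, a sortilin-family receptor gene, 13, SORBS2 and the adhesion gene NTM 12 each, and LINC01169 11, a number that DLGAP2, PRDM16, PTPRN2, ADARB2 and IQSEC1 also reached. In SORBS2 the highest region stood apart from the other 11, whose values were at most 11.7 and 9.02. None of the 13 regions of SORCS2 was above percentile 75, and 5 of the 15 in GSE1 were. These counts were not adjusted for gene length.

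Among named hosts, the widest regions were in NACC2, a gene of a BTB-domain repressor, with 9988 bp, and in CNIH3, an AMPA receptor partner gene, with 7325 bp. These are lengths of groups of joined peaks, and single peaks were shorter. The widest single first intron peak had 6326 bp in replicate 1 and 6009 bp in replicate 2. In NACC2 the strongest peaks reached 3.07 in replicate 1 and 5.98 in replicate 2, at percentiles 14.4 and 67.2 of their lists. These 2 peaks were 741 and 2510 bp wide and did not overlap each other, with summits 2308 bp apart. In CNIH3 the strongest peaks reached 17.1 and 16.8, at percentiles 97.6 and 97.1, and were 6234 and 2545 bp wide. BCOR, the gene of the BCL6 corepressor, a Polycomb-linked factor, held a region of 6427 bp with 7 summits in each sample and fold enrichment 13.9 and 17.5. It was 1 of 9 regions in BCOR, 3 of them above percentile 90, and the highest reached 16.4 and 15.2. Another BCOR region, with 7.58 and 8.38, covers 1 of the RefSeq starts counted above. C13orf42 (6081 bp, strongest peaks of 2668 and 1090 bp) and ZC3H12A-DT (6009 bp, strongest peaks of 2895 and 6009 bp) completed the 5 widest with a named host.

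Host genes were long. The median RefSeq length of coding genes with a first intron region was 111 kb, against 24.2 kb for all 19970 coding genes, of which 5.12% had such a region. The share rose from 0.354% of genes up to 10 kb (20 of 5655) to 6.56% at 30 to 100 kb and 26.5% over 300 kb (204 of 771). Of the 1023 genes, 341 also had a later intron region, as did 1585 of all coding genes (7.94%). Genes with a later intron region were longer still, with a median of 147 kb. Their share also rose with length, to 54.0% of genes over 300 kb.

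Most coding hosts with a symbol also carried a promoter peak. In both samples the authors assigned a promoter peak to 926 of 1023 coding hosts (90.5%, 88.6 to 92.2), while the share for all coding genes was 67.4%. A host has a symbol here only if the authors assigned some peak to it. Coding hosts with no assigned peak, and so no promoter peak, are missing from the 1023. This raises the share by construction, also for later introns, while all coding genes were not filtered. Hosts with no name held 239 and 246 first intron peaks, and how many are coding is not known. The difference was smaller among long genes. Among genes over 300 kb it was 93.1% of hosts (88.8 to 95.9) and 86.4% of all (83.8 to 88.6), and among genes of 30 to 100 kb 87.2% (83.3 to 90.3) and 76.9% (75.8 to 78.0). Coding genes with a later intron region were at 88.8% (87.1 to 90.2).

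The following gene lists were read against the 5.12% of all coding genes and, because longer genes have more regions, beside their median length. Of 428 list genes, 52 (12.1%) had a reproducible first intron region. This total includes 21 hosts from a list of 37 long neural genes, drawn up with earlier results of these data in view. It is therefore no independent comparison with the share of all coding genes. Among genes that maintain pluripotency in both the naive and the primed state there was none, 0 of 25, which allows up to 12.0% (for a count of 0 the limit is taken as 3 genes of the list's total, not the Wilson bound), although 24 of the 25 had a promoter peak in both samples. This list includes POU5F1, SOX2, NANOG and LIN28A, and its median gene length was 16.0 kb. The limit treats all 25 genes as able to hold a region, although peaks within 3 kb of a start were filed as promoter peaks. Coding genes of 10 to 30 kb were at 1.93%, and those up to 10 kb at 0.354%. The part of gene length in this count was not tested. In the naive list 1 of 27 genes had one (3.70%), ESRRB, a nuclear receptor gene that is part of the naive network in the mouse. It held 6 regions, with fold enrichment 3.36 to 8.41 in replicate 1 and 2.35 to 10.2 in replicate 2. The highest lay 3.43 kb from an ESRRB start, with 7.63 and 10.2, at 76314097 to 76315723 on chromosome 14. DPPA3 had a first intron peak in 1 sample only. The median gene length was 9.75 kb in the naive list and 11.6 kb in the primed list. Of the primed list 3 of 25 genes had a region, among them NLGN4X, a neuroligin gene, with 5.49 and 4.27, and FAT3, a cadherin gene, with 4.27 and 5.41.

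For the O-GlcNAc and hexosamine pathway, which makes and turns over the sugar that OGA removes, 1 of 14 genes had a region (7.14%). This was GFPT2, an enzyme gene of the entry step, with 4 regions that all lay nearest to a GFPT2 start. The highest, at 180343929 to 180345503 on chromosome 5, had 11.3 in replicate 1 and 12.3 in replicate 2, at percentile 89.9, and the others had 4.34 and 5.25, 4.51 and 3.13, and 2.30 and 2.52. Neither OGA nor OGT, the opposing transferase, was among the hosts in either sample. Of the acetyltransferases and coactivators 1 of 22 had a region, the arginine methyltransferase gene CARM1, with 6.75 and 7.52. The median gene length was 39.1 kb in the O-GlcNAc and hexosamine list and 69.5 kb in the acetyltransferase and coactivator list.

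In WNT signalling 6 of 35 genes (17.1%, 8.10 to 32.7) had a region. By role these were the ligands WNT7B (4.85 and 5.65) and WNT3 (4.34 and 5.09), the receptors LRP5 (5.72 and 5.39, with 6 regions), ROR1 (5.16 and 6.28) and ROR2 (6.72 and 5.09), and ZNRF3, a ligase that removes receptors (5.21 and 6.65). Among NODAL, TGF-beta and BMP genes, 5 of 35 (14.3%, 6.26 to 29.4) had one: the ligand BMP7 (6.41 and 4.21), the receptors BMPR1B (13.7 and 13.8) and BMPR2 (4.56 and 3.30), the effector SMAD3 (2.57 and 4.42) and the repressor SKI (10.0 and 10.6). In FGF and ERK signalling there was none, 0 of 32, which allows up to 9.38%, nor in LIF, JAK and STAT3 signalling, 0 of 17, which allows up to 17.6%. Promoter peaks were present in both samples at 31 of 32 and 16 of 17 genes. The median gene length was 16.6 kb in the FGF and ERK list, 65.0 kb in the WNT list and 49.9 kb in the NODAL, TGF-beta and BMP list, and the part of gene length in these counts was not tested.

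Of chromatin genes, 3 of 17 in DNA methylation had a region, among them TET1, a demethylation enzyme gene (6.71 and 5.11), and the methyltransferase gene DNMT3A (4.97 and 5.06). In the Polycomb and trithorax list 1 of 29 had one, CBX7 (6.37 and 4.72). In the Hippo list 1 of 24 had one, the transcription factor gene TEAD3 (10.8 and 6.97). Median gene lengths were 59.1 kb for DNA methylation, 48.5 kb for Polycomb and trithorax and 73.6 kb for Hippo.

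Lists of markers of other cell types gave a few regions each. In the trophectoderm list 3 of 20 genes had one, ENPEP (above), TEAD3 and the keratin gene KRT8 (3.33 and 5.00). In the primitive endoderm list these were 2 of 18, GATA4 (4.88 and 3.64) and the collagen gene COL4A1 (3.55 and 3.48). In the mesoderm list they were 3 of 21, TWIST2, a transcription factor gene (13.9 and 13.2), PDGFRB, a growth factor receptor gene (5.93 and 5.00), and WNT3. The fibroblast list had 3 of 20, TWIST2, PDGFRB and COL5A1 (7.48 and 6.04). In the neuroectoderm list there was none, 0 of 21, which allows up to 14.3%. Peaks do not measure expression, so these counts do not check the labelled cell type. Housekeeping genes had 3 of 24: RAB7A (above), PGK1, a glycolytic enzyme gene (3.85 and 4.37), and ACTB, the gene of beta-actin (3.57 and 3.38). Median gene lengths were 22.8 kb (trophectoderm), 73.9 kb (primitive endoderm), 6.42 kb (mesoderm), 37.4 kb (fibroblast), 8.10 kb (neuroectoderm) and 18.2 kb (housekeeping).

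Long neural adhesion and synapse genes stood highest, with 21 of 37 (56.8%, 40.9 to 71.3) and 96 regions. Their median length was 1171 kb, and coding genes over 300 kb were at 26.5%. The list was drawn up from genes known to be long, with earlier results of these data in view, so its count is no independent evidence. The highest values were in NRG3, a neuregulin gene (12.1 and 13.0), OPCML, an adhesion gene (14.8 and 12.2), and SDK2 (11.9 and 11.3). OPCML held 10 regions, NTM 12 and PTPRN2, a receptor-type phosphatase gene, 11. The median percentile of the highest region per host was 69.3 in this list.

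By chromosome, first introns took the largest share of peaks on chromosome 13, 11.5% in replicate 1 and 12.0% in replicate 2, and the smallest on chromosome 19, 4.93% and 4.89%. CLYBL alone gave 33 of 164 first intron peaks on chromosome 13 in replicate 1 and 38 of 172 in replicate 2, and ATP11A another 22 and 23. Of intron peaks alone, first introns also had their largest share on chromosome 13, 46.6% and 47.5%. On the X chromosome, where BCOR lies, 6.10% and 6.06% of peaks were in first introns, and 71.9% and 69.7% of them were shared.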

How the data were processed

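Coordinates are on GRCh38, per the submitters' processing notes, which also list fastp 0.19.11. Neither aligner, peak caller, threshold nor treatment of duplicates is stated there. The authors deposited 1 annotated peak table per EP300 sample, 81061 and 80208 rows, with 1 row per summit. The signal value is taken here as fold enrichment, a ratio that the authors' caller gave, and significance is on a -log10 scale (p and q), per the file headers. No q exceeded 0.0497 and 0.0498. The deposited score column was not used. Without read counts in these tables, the sequencing depth is unknown.

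Rows with equal chromosome, start and end were merged, keeping the highest fold enrichment, on chromosomes 1 to 22 and X (52 and 51 rows elsewhere, none in a first intron). Peaks were shared if they overlapped by at least 1 bp, and overlapping groups with a first intron peak from each sample were the reproducible regions. The host is the gene of the annotated transcript. Its symbol was taken from the genes to which the authors assigned peaks, so a host with no assigned peak has no name. Coding genes were the 19970 symbols of the RefSeq table, GRCh38.p14. All values are descriptions, with no test over peaks or genes; intervals are Wilson intervals (for a count of 0 the upper limit is 3 of the total), or built from Wilson bounds for differences of shares. Python 3.11.15, pandas 2.3.3 and numpy 2.4.6 were used, and overlap and joining were tested on simulated data.

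Named genes are hosts of the 10 highest-ranked regions, the 10 genes with most, the 5 widest, the 3 farthest, 3 high-ranked regions nearest another gene, the 3 highest unshared per sample, and up to 4 hosts per list by percentile; further hosts of short lists were named after their values were seen, as were genes at RefSeq starts. Some genes that this rule names are not reported here. The members and the 19 gene lists (428 of 430 symbols matched) were chosen with earlier results of these data known.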

Additional observations from a re-analysis of the deposited data

How the results depend on the processing

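Of 66 values recomputed under other settings, 33 stayed within 1 SD of the 2 samples, or within 1.5 times for counts, and 33 moved. For values other than counts, a single replicate always lies within 1 SD of the mean of 2, so those could not move. Direction was read only for the difference in sharing from later introns, which kept its sign. The difference in median fold enrichment from later introns, 0.00864 in the main setting, was -0.00304 with every summit row counted. Only peaks with fold enrichment of at least 5: first introns held 5.02% of peaks, 70.7% were shared, with 946 regions in 705 genes and 29 list genes, a median fold enrichment of 6.60, 3.64% above percentile 90, 0.0863 points more sharing than later introns, a median 0.0573 above theirs, 10.8 kb to a start and 59.8% assigned to the host. Only peaks with a -log10 q-value of at least 5: 6.27% of peaks, 65.9% shared, 1597 regions in 1053 genes, median fold enrichment 5.16, 3.33% above percentile 90, 0.401 points over later introns, 10.9 kb and 61.2% assigned to the host. The small excess in sharing over later introns, 1.67 points ± 0.378 (SD, n = 2), thus shrank with both filters. Without transcripts of a single intron: 6.74% of peaks, 63.1% shared, 11.2 kb and 62.8% assigned to the host. With an overlap of 50% of both peaks: 51.4% shared and 0.769 points over later introns. With every summit row counted: 7.51% of peaks, 67.5% shared, median 3.93, 2.32 points and 10.7 kb. With a single list, without either replicate, the number of regions becomes that of first intron peaks, 5213 to 5286, in 2286 to 2303 genes with 58 to 59 list genes; shares of peaks were 8.03% to 8.10%, medians 3.94 to 3.95, shares above percentile 90 2.84% to 3.12%, differences in the median from later introns -0.0134 to 0.0307, distances 10.9 to 11.0 kb and shares assigned to the host 62.2% to 62.4%. Sharing cannot be computed from a single list. The motif shares planned around summits were not run, because no genome was used here. No paired analysis was possible because the EP300 samples form 1 group.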
